A study of Mus musculus with 12 samples.

Results

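The genes described here encode 9 transcription factors of the myeloid lineage, Spi1, Cebpa, Cebpb, Cebpd, Maf, Klf2, Klf4, Egr2 and Myc. They were taken by name, not by a cutoff on their levels, from the 35275 genes in the count tables. Earlier results of these data were known when they were chosen. RNA-seq was performed on BMDMs, macrophages grown from bone marrow of wildtype mice, in 3 groups of 4 libraries. The bone marrow cells of every group were cultured for 6 days with M-CSF, IL-4 and IL-10, and the groups differed in what was added over the same 6 days: DMSO as the solvent control, olaparib, an inhibitor of PARP enzymes, or MNA, a methylated derivative of nicotinamide. The study's methods describe the bone marrow donors in general as young adult mice of either sex, without tying a strain, age or sex to these libraries, and the cultures are a model without the surrounding tissue. The comparisons ask how olaparib or MNA changed gene expression relative to DMSO while the macrophages formed. A legend of the study names 4 donor mice for these profiles, but which libraries came from which mouse is not stated, so p-values measure the spread between these libraries.

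Myeloid cells are specified by a small set of transcription factors that act together. PU.1, the product of Spi1, is an ETS factor that opens enhancers in macrophages, and the C/EBP proteins, which are basic leucine zipper factors, bind many of the same enhancers. C/EBPα drives early myeloid commitment, while C/EBPβ and C/EBPδ are induced by inflammatory and cytokine signals. MAF (c-Maf) and the Krüppel-like factors KLF2 and KLF4 are known from tissue-resident and alternatively activated macrophages, EGR2 is induced downstream of IL-4, and MYC drives growth and ribosome production.

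The libraries held 21146291 to 31446849 counts, and 12849 genes passed the filter on low counts, among them all 9 factors, whose counts ranged from 84 for Maf to 12996 for Cebpa in a single library. A gene was called higher or lower at a Benjamini-Hochberg adjusted p under 0.05 in edgeR's quasi-likelihood test across all tested genes. Levels are given as CPM, counts scaled to library size with TMM factors. MNA replicate 2 stood apart from the other MNA libraries: it lay nearer to the DMSO mean than to the mean of MNA replicates 1, 3 and 4 for 81.7% of the tested genes and for 8 of the 9 factors, Cebpa being the exception. Its label says MNA, so it was kept as an MNA library. The calls of the 9 factors, and the counts that moved in lists other than cell markers, are also given without it. So are the counts of some marker lists. Of 10 macrophage markers all passed the filter, with summed levels of 4839 to 6083 CPM with DMSO, 9241 to 11041 CPM with olaparib and 4447 to 7904 CPM with MNA, although Fcgr1 was near the detection limit (0.916 ± 0.324 CPM with DMSO, SD, n = 4). The macrophage sum was led by Lyz2. Of the 10 markers, 4 were called higher and 1 lower with olaparib, and 2 higher and 2 lower with MNA. Without MNA replicate 2 these were 5 and 2 with olaparib, and 3 and 4 with MNA. In bulk RNA, fewer cells that express a gene and less of its RNA per cell cannot be told apart.

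Other cell types' markers were low but not level between the groups. The 10 neutrophil markers summed to 6.09 to 20.4 CPM with DMSO, 58.2 to 72.6 CPM with olaparib and 5.48 to 82.8 CPM with MNA, and with olaparib most of this was Mmp8 (64.7 ± 6.61 CPM), while S100a9 was at 0.0371 ± 0.0430 CPM. Of 4 tested neutrophil markers, 1 was called higher with olaparib and 1 with MNA, and 0 were lower. Without MNA replicate 2, 5 were tested, and 1 was higher with olaparib. All 5 were higher with MNA in that fit (median log2 fold change 3.27). The eosinophil list, mostly Siglecf, reached 58.5 CPM with olaparib and at most 9.99 CPM in the other groups. The T and NK cell list, mostly Klrb1c, reached 18.4 CPM with olaparib and at most 4.52 CPM otherwise. The dendritic cell list, led by Zbtb46, stayed between 17.5 and 26.7 CPM, and the progenitor list, led by Gata2, between 6.90 and 12.7 CPM. The endothelial list, led by Kdr, was at 4.83 to 11.8 CPM with DMSO, 3.83 to 5.54 with olaparib and 0.386 to 5.98 with MNA. Of its 2 tested markers, 0 were called lower with olaparib and 1 with MNA, or 1 and 2 without MNA replicate 2. The B cell list (led by Cd79b), the stromal list (Pdgfrb) and the basophil and mast cell list (Hdc) reached at most 6.83, 3.10 and 1.13 CPM. In 1 MNA library the erythroid markers, mostly Hba-a1, summed to 56.1 CPM, against at most 4.03 CPM with DMSO and 0.337 CPM with olaparib. The part of these cells in the results below was not tested.

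In GRCm38 the genes lie at chr2:91082390-91115756 (Spi1), chr7:35119293-35121928 (Cebpa), chr2:167688915-167690418 (Cebpb), chr16:15887286-15891031 (Cebpd), chr8:115682942-115707794 (Maf), chr8:72319033-72321656 (Klf2), chr4:55527143-55532466 (Klf4), chr10:67535475-67542188 (Egr2) and chr15:61985391-61990374 (Myc), and counts were made over their exons. Maf and Klf4 lie on the minus strand. Of the exon bases of Cebpb, 20.7% overlap exons of Tmem189 on the opposite strand, and of those of Cebpd, 15.0% overlap Spidr. Which strand was counted is not given in the sources used here, so reads from these overlaps could belong to either gene. Tmem189 had adjusted p of 0.262 with olaparib and 0.238 with MNA in edgeR's test (log2 fold change -0.13 in each), and Spidr was lower with olaparib (-0.35, adjusted p = 0.0216).

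Promoters are shown for 4 of the 5 factors with a matched RefSeq promoter: Klf4 and Cebpb fell with MNA, and Cebpa and Egr2 rose with olaparib. Each is the RefSeq window of GRCm38.p6 from 250 bases before to 50 bases after the annotated start, 5′ to 3′ on the gene's strand, at chr4:55532426-55532725 (minus strand), chr2:167688665-167688964, chr7:35119043-35119342 and chr10:67535249-67535548 (each plus strand). RefSeq promoters matched 5 of the 9 factors (also Klf2), and none was matched for Spi1, Cebpd, Maf or Myc. Capitals mark matches on either strand to CCACCC (bound by KLF factors), GCGNGGGCG (EGR factors) or CACGTG (the E-box bound by MYC).
Klf4: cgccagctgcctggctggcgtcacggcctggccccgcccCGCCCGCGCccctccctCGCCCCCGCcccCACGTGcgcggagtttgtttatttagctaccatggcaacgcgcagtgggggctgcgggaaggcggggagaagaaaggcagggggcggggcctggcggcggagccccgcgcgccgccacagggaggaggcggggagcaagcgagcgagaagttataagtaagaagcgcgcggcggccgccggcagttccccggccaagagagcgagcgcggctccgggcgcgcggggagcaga
Cebpb: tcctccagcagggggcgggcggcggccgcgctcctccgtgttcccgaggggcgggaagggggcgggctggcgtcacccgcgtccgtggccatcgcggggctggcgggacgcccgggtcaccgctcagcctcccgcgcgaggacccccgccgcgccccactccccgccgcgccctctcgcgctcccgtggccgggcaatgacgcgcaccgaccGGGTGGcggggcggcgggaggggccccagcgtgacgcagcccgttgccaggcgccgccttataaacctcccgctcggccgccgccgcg
Cebpa: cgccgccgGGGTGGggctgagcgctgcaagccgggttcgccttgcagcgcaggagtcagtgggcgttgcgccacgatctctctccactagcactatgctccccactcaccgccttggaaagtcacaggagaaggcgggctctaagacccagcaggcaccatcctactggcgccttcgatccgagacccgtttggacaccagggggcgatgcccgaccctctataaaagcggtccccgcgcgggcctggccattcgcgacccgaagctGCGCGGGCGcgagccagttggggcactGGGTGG
Egr2: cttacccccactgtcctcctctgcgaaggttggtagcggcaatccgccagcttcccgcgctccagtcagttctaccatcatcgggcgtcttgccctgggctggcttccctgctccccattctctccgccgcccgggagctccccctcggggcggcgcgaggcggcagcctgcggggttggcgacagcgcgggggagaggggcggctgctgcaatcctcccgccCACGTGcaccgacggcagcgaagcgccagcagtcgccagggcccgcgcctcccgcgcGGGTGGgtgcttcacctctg
The Klf4 window held 2 EGR motifs and 1 E-box, the Cebpb window 1 KLF motif, the Cebpa window 2 KLF motifs and 1 EGR motif, and the Egr2 window 1 KLF motif and 1 E-box. Of 27025 RefSeq promoters of the same length, 30.8% held CCACCC, 5.53% GCGNGGGCG and 7.24% CACGTG. The 4 windows contained 67.3% to 80.7% G and C, against a median of 52.7% over all promoters. No match was found in them to GAGGAA (PU.1, 28.3% of promoters), TTGCNNAA (C/EBP, 10.7%) or TGCTGAC (MAF, 4.57%). A match is a description of the letters and not of binding.

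As RPKM, counts scaled by exon length and library size, Spi1 was the most abundant factor with DMSO at 154 ± 9.40 (SD, n = 4), and its libraries overlapped those of Cebpa (143 ± 7.94), which overlapped those of Cebpb (134 ± 14.3). Egr2 followed at 96.4 ± 3.86 RPKM, Klf4 at 44.6 ± 2.10 and Myc at 17.5 ± 2.47, each separate from its neighbours. Klf2 (10.7 ± 2.12 RPKM) and Cebpd (7.50 ± 1.22) overlapped, and Maf was lowest at 1.10 ± 0.154. Averaged over the 12 libraries, the level per length of Spi1 exceeded that of 98.0% of the tested genes, and that of Maf exceeded 24.1%. With olaparib Cebpa had the highest mean, at 175 ± 19.7 RPKM, and its libraries overlapped those of Spi1 (153 ± 4.40). Cebpb (116 ± 6.80) and Egr2 (115 ± 2.83) also overlapped there. In MNA replicates 1, 3 and 4 Spi1 was first at 165 ± 3.83 RPKM, Egr2 (83.5 ± 4.61) overlapped Cebpb (69.0 ± 13.4), and Klf4 (11.5 ± 1.47) was below Myc (20.6 ± 0.579) and overlapped Klf2 (11.3 ± 0.553).

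**Figure D1:**
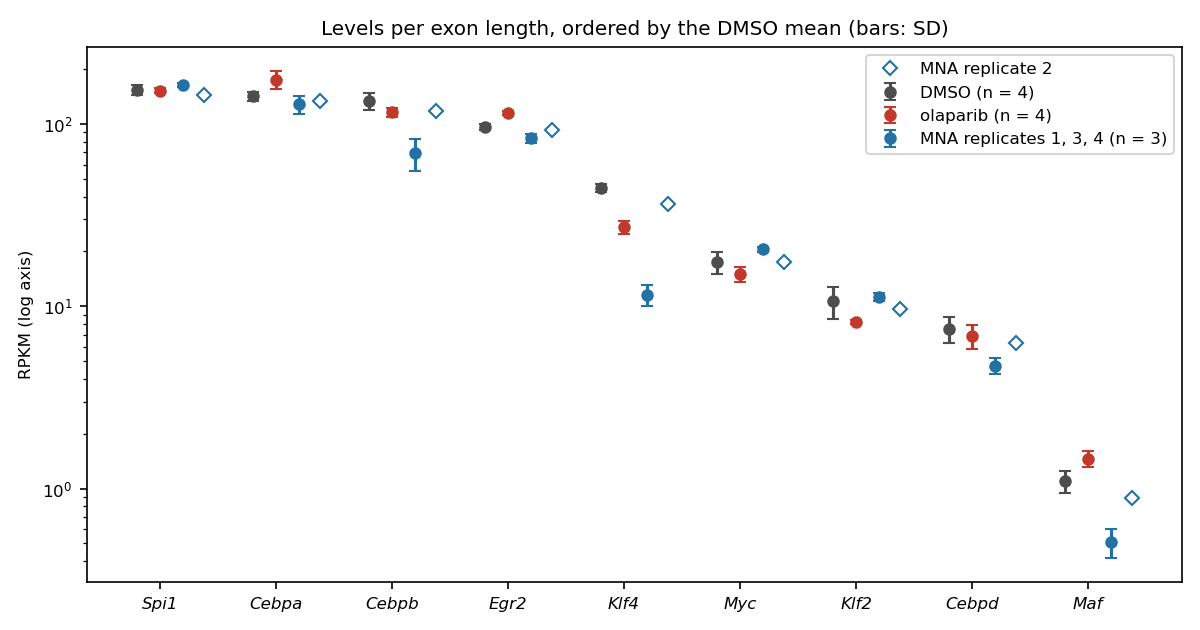
Mean level of each factor per exon length (RPKM, log axis) with DMSO, olaparib and MNA replicates 1, 3 and 4, with SD as bars and MNA replicate 2 as an open diamond. Klf4 drops from 44.6 RPKM with DMSO to 11.5 in those 3 MNA libraries, while Spi1 stays between 153 and 165.

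Relative to DMSO, olaparib called 3 of the 9 factors: Cebpa and Egr2 were up-regulated and Klf2 was down-regulated. Of all tested genes 27.0% were called in this comparison, 14.3% higher and 12.8% lower, so the share among the factors was near that background. Of the 12 fits that each left out 1 library, Klf4 (lower) and Maf (higher) passed only in the one without MNA replicate 2. Klf4, Maf and Egr2 did not overlap between the olaparib and DMSO libraries, which was also so for 41.0% of the tested genes. Spi1, Cebpb, Cebpd and Myc did not pass in either of these unpaired fits. With the olaparib and DMSO libraries alone and paired by replicate number, 4 factors were lower (Cebpb, Klf2, Klf4 and Myc) and 3 were higher (Cebpa, Maf and Egr2). The share of all tested genes called in that paired fit was not determined, so these counts have no background beside them. Without MNA replicate 2, 5 factors were called, 3 higher and 2 lower, against 43.7% of the tested genes, 22.5% higher and 21.2% lower.

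Relative to DMSO, MNA down-regulated 4 factors, Klf4, Maf, Cebpb and Cebpd, and up-regulated 0 in edgeR's test (0 also at an unadjusted p under 0.05 and by DESeq2). Of all tested genes 28.6% were called, 16.3% higher and 12.3% lower. Without MNA replicate 2 Egr2 was also lower, making 5 of 9, where 54.1% of the tested genes were called and 26.9% were lower. In that fit, too, 0 factors were called higher by edgeR, with 1, Myc, at an unadjusted p under 0.05, against 27.2% of the tested genes called higher. The MNA libraries did not overlap the DMSO libraries for 5 factors (Cebpb, Cebpd, Maf, Klf4 and Egr2), against 12.4% of the tested genes, and for the same 5 without MNA replicate 2, against 54.4%.

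Both treatments were compared with the same DMSO libraries, and the direct contrast of olaparib with MNA is the test of where they differ. Cebpa, Maf and Egr2 were higher and Klf2 and Myc lower with olaparib than with MNA, against 21.8% of all tested genes called, 10.9% in each direction. The libraries of the 2 treatments did not overlap for the same 5 factors, against 21.2% of the tested genes. Without MNA replicate 2, Cebpb, Cebpd and Klf4 were also higher with olaparib, which left Spi1 as the only factor not called (log2 fold change -0.11, 95% interval -0.23 to 0.02, adjusted p = 0.150), with 42.3% of the tested genes called, 21.5% higher and 20.7% lower. Without that library the treatments did not overlap for any of the 9 factors, against 46.3% of the tested genes.

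**Figure D2:**
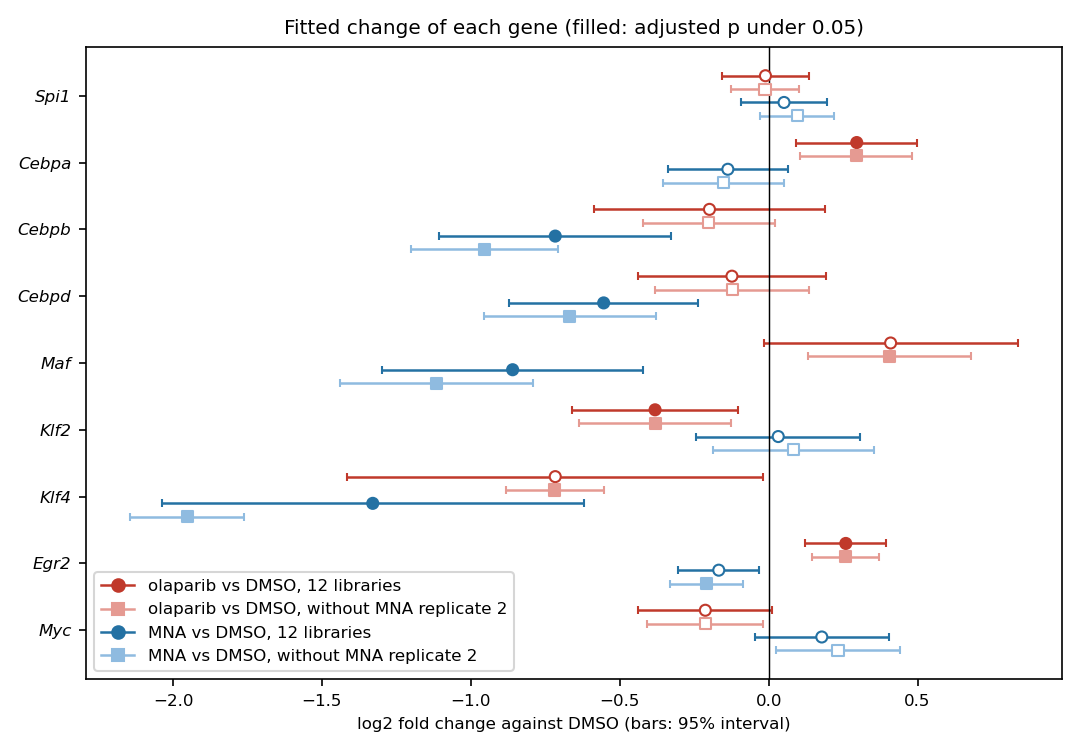
Fitted log2 fold change against DMSO for each factor, with olaparib in red and MNA in blue, for all 12 libraries (circles) and without MNA replicate 2 (squares), bars being 95% intervals and filled symbols an adjusted p under 0.05. Egr2, Cebpa and Maf lie right of zero with olaparib and left of it with MNA, and the Klf4 interval narrows from -2.04 to -0.62 with MNA replicate 2 to -2.14 to -1.76 without it.

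Spi1 encodes PU.1, the master regulator of the lineage. It was at 452, 402, 399 and 405 CPM in DMSO replicates 1 to 4, 419, 408, 423 and 397 CPM with olaparib and 433, 388, 444 and 454 CPM with MNA. The groups overlapped, with a change of -0.01 on the log2 scale with olaparib (95% interval -0.16 to 0.14, adjusted p = 0.916) and 0.05 with MNA (-0.09 to 0.20, adjusted p = 0.570). Of 16 tested relatives of the ETS family, olaparib raised 1 and lowered 4, and MNA raised 5 and lowered 2, with medians of -0.10 and 0.05 beside 0.00 over all tested genes for each. This balance rested on MNA replicate 2: in the fit without it 17 were tested, 5 rose and 7 fell with olaparib (median -0.01), and 5 rose and 5 fell with MNA (median 0.00). Ets1 fell in both comparisons (-0.66, adjusted p = 0.00680, and -0.41, adjusted p = 0.0486), Elk3 rose with olaparib (0.83, adjusted p = 0.00255), and Etv6 and Etv5 rose with MNA (0.39, adjusted p = 0.0220, and 0.48, adjusted p = 0.0232).

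Some genes known as PU.1 targets passed the test although Spi1 did not. Of 17 tested, 8 rose and 1 fell with olaparib (median 0.39), and 8 rose and 1 fell with MNA (median 0.28). Itgam, an integrin chain of phagocytes, rose by 1.74 with olaparib (adjusted p = 0.000353) and was not called with MNA (0.57, adjusted p = 0.0596). Lyz2, which encodes lysozyme, rose from 1918 ± 416 to 6009 ± 640 CPM with olaparib (n = 4, log2 fold change 1.65, adjusted p = 0.00128). The 1 that fell with olaparib was Cd68, a lysosomal glycoprotein (-0.55, adjusted p = 0.00353). Ncf1, a subunit of the NADPH oxidase, fell with MNA (-0.54, adjusted p = 0.0142), and the kinase gene Fes rose in both comparisons (0.39, adjusted p = 0.0222, and 0.54, adjusted p = 0.0142). In the fit without MNA replicate 2, 13 rose and 2 fell with olaparib and 9 rose and 6 fell with MNA. Itgam, Lyz2, Cd68 and Fcgr1 are also in the macrophage marker list. So are Cd14 and Mrc1, which are named below among the C/EBP, MAF and KLF targets. The sum of that list was led by Lyz2 and was higher in every olaparib library than in the other libraries. The part of that difference in these counts was not tested.

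Cebpa was at 354, 379, 403 and 369 CPM with DMSO, 393, 490, 511 and 453 CPM with olaparib and 302, 352, 380 and 335 CPM with MNA. Of the olaparib libraries 3 were above every DMSO library and replicate 1 was within the DMSO range. Cebpa was up-regulated by olaparib by 0.30 on the log2 scale (SE 0.09, 95% interval 0.09 to 0.50, adjusted p = 0.0351). The call was lost in 6 of the 12 fits that each left out 1 library: without DMSO replicate 1, 2 or 4 (adjusted p = 0.0854, 0.0748 and 0.0835) and without olaparib replicate 2, 3 or 4 (0.0941, 0.104 and 0.0637). With MNA it was not called (-0.14, adjusted p = 0.268), and olaparib exceeded MNA in every library (0.43, adjusted p = 0.00708).

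Cebpb was at 197, 232, 191 and 184 CPM with DMSO, 171, 171, 190 and 168 CPM with olaparib and 84.4, 178, 125 and 102 CPM with MNA. Every MNA library, replicate 2 included, was below every DMSO library. It was down-regulated by MNA by 0.72 on the log2 scale in edgeR's test (log2 fold change -0.72, SE 0.18, adjusted p = 0.0197) and by 0.96 without MNA replicate 2 (-0.96, adjusted p = 1.04e-05). The call was lost without DMSO replicate 2 (adjusted p = 0.0536) and without MNA replicate 1, 3 or 4 (0.0518, 0.0577 and 0.0658). With olaparib its log2 fold change was -0.20 (95% interval -0.59 to 0.19, adjusted p = 0.423). Each olaparib library was below the DMSO library of its number, and Cebpb was called lower by edgeR with these groups alone, without the pairing (adjusted p = 0.0427) and with the replicate block (-0.20, adjusted p = 0.0262).

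Cebpd was at 34.2, 29.0, 25.4 and 23.9 CPM with DMSO, 31.4, 23.5, 24.8 and 23.3 CPM with olaparib and 15.8, 23.5, 19.2 and 18.0 CPM with MNA. The MNA libraries were again all below the DMSO libraries, by a narrow margin for MNA replicate 2. MNA lowered it by 0.55 (log2 fold change -0.55, SE 0.15, adjusted p = 0.0220), and by 0.67 without MNA replicate 2 (-0.67, adjusted p = 8.13e-04). Without DMSO replicate 2 (adjusted p = 0.0542) or without MNA replicate 1, 3 or 4 (0.0655, 0.0649 and 0.0690) it was not called. With olaparib its log2 fold change was -0.12 (95% interval -0.44 to 0.19, adjusted p = 0.547). Against MNA it was 0.43 with olaparib (adjusted p = 0.0533) and was called without DMSO replicate 1 (0.0448) or MNA replicate 2 (0.00488).

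The ratio of Cebpa to Cebpb, from levels per length, was 1.03, 0.931, 1.21 and 1.14 with DMSO, 1.31, 1.63, 1.53 and 1.54 with olaparib, and 2.04, 1.74 and 1.87 in MNA replicates 1, 3 and 4, with 1.13 in MNA replicate 2. The DMSO values were the lowest, the olaparib values came next and those 3 MNA values were the highest, with no overlap. No test was run on the ratio.

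Of 7 tested relatives and modulators of the C/EBP proteins, 5 fell and 1 rose with olaparib (median -0.68), and 2 fell with MNA (median -0.52), or 5 without MNA replicate 2 (median -0.83). Atf4, a basic leucine zipper factor of the stress response, fell with olaparib (-0.68, adjusted p = 0.00345) and was not called with MNA (-0.10, adjusted p = 0.554). Trib3 (-1.57, adjusted p = 0.0343) and Cebpg (-0.59, adjusted p = 0.0430) also fell with olaparib. Ddit3 (CHOP) fell with olaparib (-1.06, adjusted p = 0.0347) and MNA (-1.10, adjusted p = 0.0324), and Trib1, which promotes degradation of C/EBPα, fell with olaparib (-0.77, adjusted p = 0.0312) and MNA (-0.74, adjusted p = 0.0369). The 1 that rose with olaparib was Cebpe, which was near the detection limit (0.504 ± 0.266 CPM against 0.0699 ± 0.0596 with DMSO) and was named after its values were seen. Of 10 tested C/EBP target genes, 3 rose and 0 fell with olaparib (median 0.38), among them Lyz2 and Nos2, the inducible nitric oxide synthase (1.64, adjusted p = 0.00393). With MNA 3 rose and 1 fell (median -0.02): Cd14 rose (0.89, adjusted p = 0.0219), Ptgs2 rose from 0.367 ± 0.115 CPM (2.83, adjusted p = 0.0142), and Nos2 was the gene that fell (-1.08, adjusted p = 0.0309). Without MNA replicate 2, 12 were tested, of which 3 rose and 1 fell with olaparib (median 0.23), and 5 rose and 5 fell with MNA.

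Maf, the least abundant factor, was at 7.50, 10.6, 8.85 and 9.21 CPM with DMSO, 13.2, 12.8, 11.0 and 11.1 CPM with olaparib and 4.89, 7.34, 4.28 and 3.38 CPM with MNA. The groups did not overlap: every olaparib library was above every DMSO library and every MNA library was below. It was higher with olaparib than with MNA by 1.27 on the log2 scale (SE 0.20, 95% interval 0.83 to 1.71, adjusted p = 0.00126), a call kept in all 12 fits that left out 1 library. Against DMSO, MNA lowered it (-0.86, adjusted p = 0.0170; without MNA replicate 2 -1.12, adjusted p = 2.90e-05), and the call was lost without MNA replicate 1, 3 or 4 (adjusted p = 0.0501, 0.0582 and 0.0525). With olaparib its log2 fold change was 0.41 against DMSO (95% interval -0.02 to 0.84, adjusted p = 0.136), and 0.41 with an adjusted p of 0.0193 without MNA replicate 2. With olaparib and DMSO alone and the replicate block the adjusted p was 0.00909. Of the 5 tested relatives, 1 rose and 1 fell with olaparib and 1 rose and 2 fell with MNA, or 1 and 3 in each comparison when MNA replicate 2 was left out. Mafa rose in both comparisons (1.55, adjusted p = 0.00347, and 1.32, adjusted p = 0.0154), and Mafk fell with olaparib (-0.51, adjusted p = 0.00480).

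More of the genes known as MAF targets rose than fell in both comparisons. Of 9 tested, 5 rose and 0 fell with olaparib (median 1.18), and 4 rose and 2 fell with MNA (median 0.94), where Maf itself was lower. When MNA replicate 2 was left out, 8 rose with olaparib and 6 rose and 3 fell with MNA. F13a1, a coagulation factor subunit, rose from 0.238 ± 0.180 to 10.0 ± 1.72 CPM with olaparib (adjusted p = 2.51e-05). The scavenger receptor gene Stab1 rose with olaparib (2.17, adjusted p = 0.000719) and fell with MNA (-0.94, adjusted p = 0.0427). The complement gene C1qb rose with MNA (2.39, adjusted p = 0.0142) and was not called with olaparib (1.32, adjusted p = 0.0613), and Mrc1, the mannose receptor, fell with MNA (-1.49, adjusted p = 0.0210). The complement genes C1qa and C1qc rose in both comparisons (1.18 and 1.47 with olaparib, 1.54 and 1.65 with MNA), as did Selenop, a selenium transport protein (0.88, adjusted p = 0.0364, and 0.94, adjusted p = 0.0304).

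Klf4 showed the largest fitted change against DMSO of the 9 factors with each treatment. It was at 146, 132, 133 and 134 CPM with DMSO, 92.6, 82.3, 75.4 and 81.0 CPM with olaparib, and 32.8, 40.4 and 32.5 CPM in MNA replicates 1, 3 and 4, while MNA replicate 2 was at 111 CPM. All olaparib libraries and all MNA libraries were below all DMSO libraries, and MNA replicate 2 was above all olaparib libraries. MNA lowered Klf4 by 1.33 on the log2 scale (log2 fold change -1.33, SE 0.33, 95% interval -2.04 to -0.62, adjusted p = 0.0192), a call lost without MNA replicate 1, 3 or 4 (adjusted p = 0.0559, 0.0621 and 0.0606), and by 1.95 without MNA replicate 2 (-1.95, SE 0.09, adjusted p = 1.79e-09). With olaparib the log2 fold change was -0.72, with a 95% interval of -1.42 to -0.02 and an adjusted p of 0.114 in the fit of 12 libraries, and of -0.88 to -0.55 and 7.81e-06 without MNA replicate 2. With olaparib and DMSO alone and the replicate block the adjusted p was 3.87e-07. In the unpaired fit without MNA replicate 2 Klf4 was also higher with olaparib than with MNA (1.23, adjusted p = 1.68e-07). This was not called with all 12 libraries (0.61, adjusted p = 0.198).

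Klf2 was at 22.9, 19.2, 14.3 and 22.2 CPM with DMSO, 15.6, 15.0, 15.0 and 14.7 CPM with olaparib and 21.8, 17.9, 19.8 and 20.9 CPM with MNA. The olaparib libraries lay close together and below 3 of the 4 DMSO libraries, DMSO replicate 3 being lower than all of them. Olaparib lowered it by 0.38 (log2 fold change -0.38, SE 0.13, 95% interval -0.66 to -0.10, adjusted p = 0.0438). The call was the least stable of the 3, lost in 9 of the 12 fits: without DMSO replicate 1, 2 or 4 (adjusted p = 0.110, 0.0774 and 0.118), without any 1 olaparib library (0.0705, 0.0871, 0.0846 and 0.102) and without MNA replicate 3 or 4 (0.0548 and 0.0517). With MNA it was not called (0.03, 95% interval -0.24 to 0.31, adjusted p = 0.862). Olaparib was below MNA in every library (-0.41, adjusted p = 0.0375), a call lost in 8 of those fits: without DMSO replicate 2 (adjusted p = 0.0520), any 1 olaparib library (0.0658, 0.0800, 0.0782 and 0.0861) or MNA replicate 1, 3 or 4 (0.0879, 0.0682 and 0.0823).

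Klf4 over Klf2, per length, was 3.85, 4.16, 5.61 and 3.66 with DMSO, 3.59, 3.31, 3.04 and 3.35 with olaparib, and 0.911, 1.24 and 0.940 in MNA replicates 1, 3 and 4, with 3.74 in MNA replicate 2. These 3 MNA libraries thus had about as much Klf4 as Klf2 RNA, and the olaparib libraries were all below the DMSO libraries. No test was run on this ratio.

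**Figure D3:**
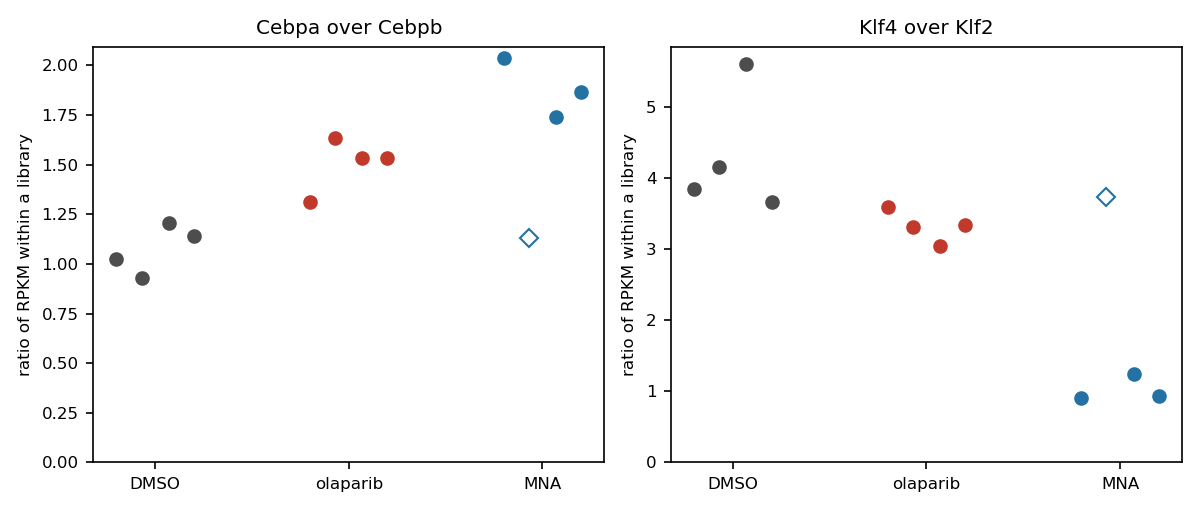
Ratio of the levels per exon length (RPKM) within each library for Cebpa over Cebpb and for Klf4 over Klf2, by group, with MNA replicate 2 as an open diamond. Replicate 2 sits at 1.13 and 3.74, inside the DMSO range of each ratio, while the other MNA libraries reach 1.74 to 2.04 and 0.911 to 1.24.

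Other KLF genes were also lower. Of 9 tested, olaparib lowered 4 and raised 0 in edgeR's test (median -0.48), and MNA lowered 5 and raised 0 (median -0.52), beside medians of 0.00 over all tested genes and shares called lower of 12.8% and 12.3%. Klf3 fell from 36.4 ± 1.83 to 22.9 ± 3.26 CPM with olaparib (n = 4, log2 fold change -0.67, adjusted p = 0.00717), and Klf6 from 378 ± 7.76 to 280 ± 7.80 CPM (-0.43, adjusted p = 0.00987). With MNA, Klf9 (-0.71, adjusted p = 0.0192) and Klf13 (-0.43, adjusted p = 0.0153) fell. Without MNA replicate 2, 10 were tested, of which 8 fell and 1 rose with olaparib and 7 fell and 0 rose with MNA in edgeR's test. The 1 that rose was Klf12, near the detection limit (0.445 ± 0.247 CPM with olaparib). In this fit without MNA replicate 2, 21.2% of all tested genes were called lower with olaparib and 26.9% with MNA. Of 8 tested genes known as KLF2 and KLF4 targets, 1 rose with olaparib, the cell cycle inhibitor Cdkn1a (0.49, adjusted p = 0.0240). When MNA replicate 2 was left out, 3 rose and 2 fell with olaparib. With MNA 4 fell and 1 rose (median -1.36), or 7 and 1 without replicate 2 (median -2.24). With MNA Cdkn1a fell (-0.51, adjusted p = 0.0247), as did Mrc1, Retnla (-1.23, adjusted p = 0.0211), a secreted protein of IL-4-treated macrophages, and Thbd, thrombomodulin (-1.83, adjusted p = 0.0343).

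Egr2 was at 347, 320, 318 and 327 CPM with DMSO, 399, 381, 388 and 401 CPM with olaparib and 295, 316, 266 and 290 CPM with MNA. The groups did not overlap: the lowest olaparib library was above the highest DMSO library and the highest MNA library, replicate 2, was just below the lowest DMSO library. Olaparib raised Egr2 by 0.26 (SE 0.06, 95% interval 0.12 to 0.39, adjusted p = 0.0112), a call kept in all 12 fits that left out 1 library. With MNA it was -0.17 (95% interval -0.30 to -0.03, adjusted p = 0.0597) and was called only without MNA replicate 2 (-0.21, adjusted p = 0.00691). Olaparib exceeded MNA by 0.43 (adjusted p = 7.10e-04), again in all 12 fits.

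Egr2 and Egr1 moved in opposite directions with olaparib. Egr1, an immediate-early gene, fell from 47.9 ± 14.2 to 17.4 ± 5.06 CPM (n = 4, log2 fold change -1.46, adjusted p = 0.00132) and was not called with MNA (0.24, adjusted p = 0.417). Of 4 tested EGR and NAB genes, 2 fell with olaparib (median -0.81), the other being Egr3, which was near the detection limit (1.14 ± 0.696 CPM with DMSO, 0.105 ± 0.106 with olaparib) and was named after its values were seen. The corepressor gene Nab1 rose with MNA (0.25, adjusted p = 0.0246), and Nab2 was not called in either comparison (-0.16, adjusted p = 0.331, and -0.15, adjusted p = 0.326). Of 16 immediate-early and heat shock genes, 7 fell and 1 rose with olaparib (median -0.49), Ier2 among those that fell (-0.64, adjusted p = 8.68e-04), or 11 and 2 in the fit without MNA replicate 2. With MNA 4 fell and 3 rose (median -0.11), or 6 and 3 in that fit, and Zfp36 (0.41, adjusted p = 0.0168) and Ier3 (0.94, adjusted p = 0.0204) were among those that rose. The 4 that fell with MNA were Fos (-1.29, adjusted p = 0.0289), Jun (-0.74, adjusted p = 0.0219), Dusp1 (-0.68, adjusted p = 0.0438) and Ier2 (-0.31, adjusted p = 0.0299), and Btg2 rose in both comparisons (0.50, adjusted p = 0.0375, and 0.59, adjusted p = 0.0232).

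Myc was at 56.9, 41.3, 44.8 and 47.3 CPM with DMSO, 45.9, 40.9, 36.5 and 40.7 CPM with olaparib and 54.1, 47.6, 57.0 and 56.5 CPM with MNA. The DMSO libraries overlapped both treatments, whereas every olaparib library was below every MNA library. Against DMSO it was not called with olaparib (-0.21, 95% interval -0.44 to 0.01, adjusted p = 0.141) or MNA (0.18, 95% interval -0.05 to 0.40, adjusted p = 0.195). Each olaparib library was below the DMSO library of its number, and edgeR called Myc lower with these groups alone and the replicate block (-0.21, adjusted p = 0.0132) and with the block and without MNA replicate 2 (-0.21, adjusted p = 0.0373). It was lower with olaparib than with MNA by 0.39 (log2 fold change -0.39, SE 0.10, adjusted p = 0.0191), which was lost without olaparib replicate 3 (adjusted p = 0.0584) or MNA replicate 3 (0.0540).

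Of 11 tested genes of the MYC network, 1 rose and 3 fell with olaparib, and 4 rose and 4 fell with MNA. Without MNA replicate 2, 1 rose and 4 fell with olaparib, and the MNA counts were the same. Mxd4, a MAX partner that opposes MYC, rose in both comparisons (0.95, adjusted p = 0.00127, and 0.51, adjusted p = 0.0281). Fbxw7, which encodes a ubiquitin ligase component that degrades MYC, fell in both (-0.95, adjusted p = 0.00423, and -0.77, adjusted p = 0.0181), as did Mga (-0.46, adjusted p = 0.0145, and -0.41, adjusted p = 0.0262). Of 28 tested MYC target genes, 13 fell and 1 rose with olaparib (median -0.32), against 12.8% of all tested genes called lower. With MNA 8 fell and 4 rose (median -0.16), against 12.3% called lower. Leaving out MNA replicate 2, 18 fell and 1 rose with olaparib, and 15 fell and 4 rose with MNA. Of all tested genes, 21.2% were called lower with olaparib and 26.9% with MNA in that fit. Pa2g4 (-0.35, adjusted p = 0.00193) and Odc1, the first enzyme of polyamine synthesis (-0.43, adjusted p = 0.00232), fell with olaparib. Ccnd2, cyclin D2, rose in both comparisons (1.53, adjusted p = 0.0214, and 2.56, adjusted p = 0.0142), and Eif4a1 rose with MNA (0.59, adjusted p = 0.0158).

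Among 18 other tested factors of the lineage, 3 rose and 1 fell with olaparib, and 2 rose and 6 fell with MNA (median -0.38), or 3 and 3 and 4 and 7 in the fit without MNA replicate 2. Runx3 (0.87, adjusted p = 0.00464) and Tfec (0.56, adjusted p = 0.00764) rose with olaparib, as did Gfi1b (1.04, adjusted p = 0.0257), and Nfil3 fell (-0.26, adjusted p = 0.0335). Cbfb (0.20, adjusted p = 0.0269) and Hhex (0.42, adjusted p = 0.0376) rose with MNA. Id2, an inhibitor of basic helix-loop-helix factors (-0.95, adjusted p = 0.0202), and Zeb2 (-0.53, adjusted p = 0.0241) fell with MNA, where Klf4, Maf, Cebpb and Cebpd were also lower.

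**Figure D4:**
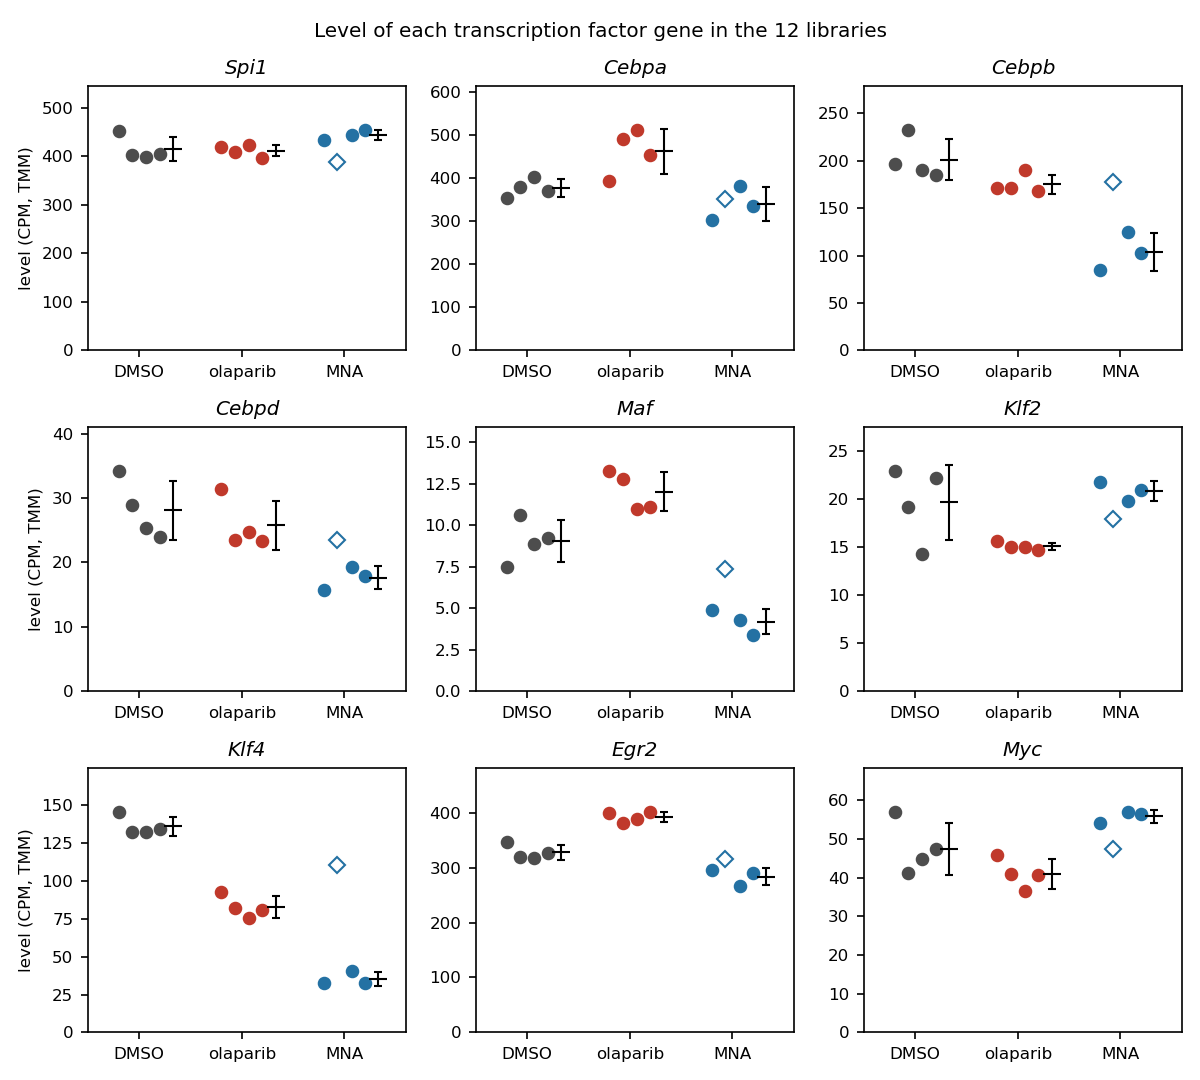
Level of each factor (CPM after TMM scaling) in the 12 libraries by group, with bars at the mean and SD to the right of each group, the open diamond being MNA replicate 2, which is left out of the MNA mean. Klf4 falls from 132 to 146 CPM with DMSO to 75.4 to 92.6 with olaparib and 32.5 to 40.4 in MNA replicates 1, 3 and 4, whereas the groups overlap for Spi1.

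**Figure D5:**
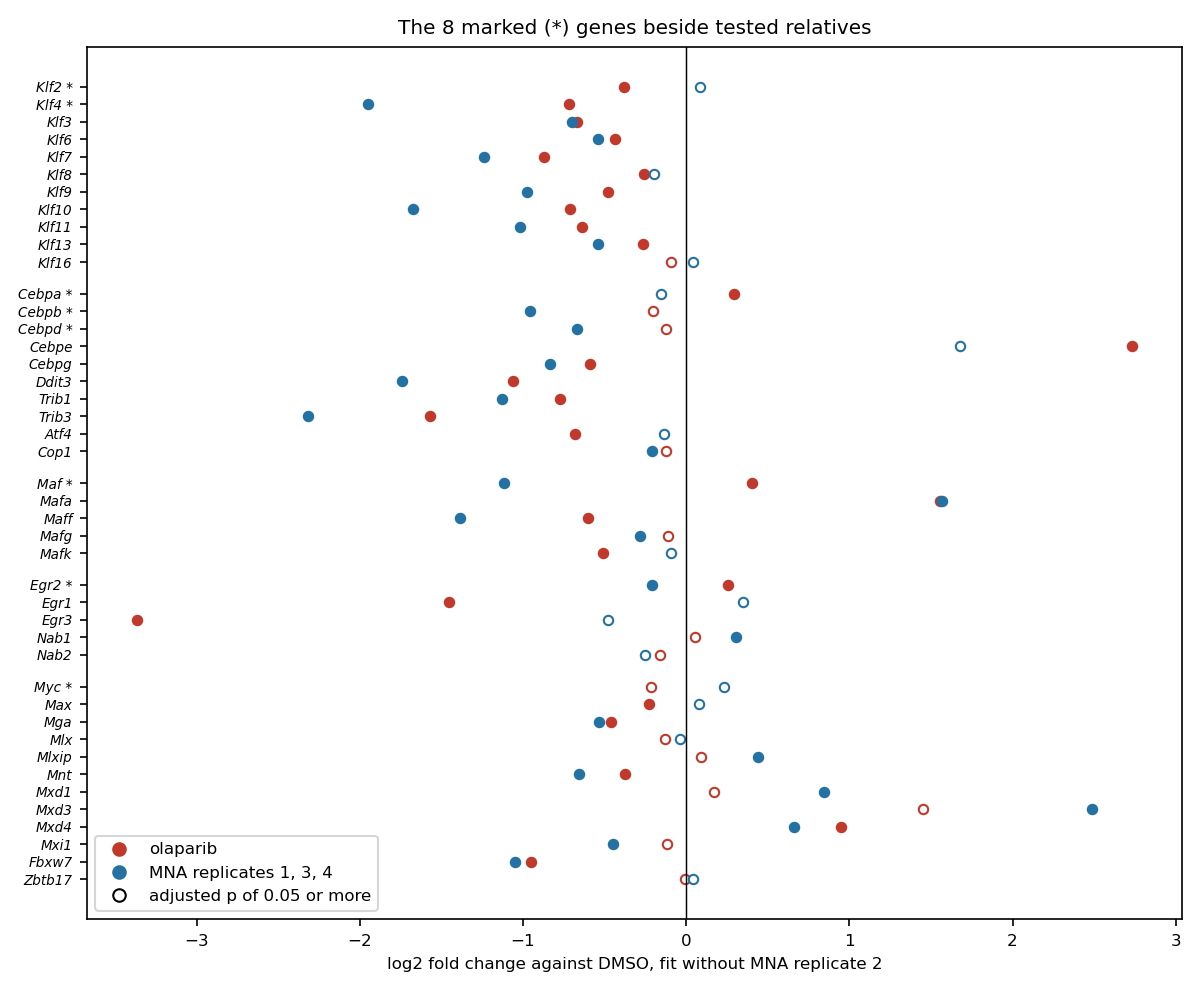
Log2 fold change against DMSO in the fit without MNA replicate 2 for 8 of the factors (marked with an asterisk) and relatives of theirs tested in the fit of 12 libraries, with olaparib in red and MNA in blue and open symbols for an adjusted p of 0.05 or more. In the KLF family 8 of the 9 plotted relatives fell with olaparib and 7 with MNA.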

How the data were processed

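RNA-seq counts of 12 libraries, 4 each of DMSO, olaparib and MNA, were used, grouped by their titles. The libraries were stranded and read from 1 end. The authors mapped them with STAR 2.5.2b (GRCm38.p5) and deposited raw counts per Ensembl gene, without normalization; which strand column was taken is not given in the sources used here. For symbols and exon lengths a GENCODE gene set (GRCm38) was read, in which 34490 of 35275 identifiers were found. Genes were filtered with filterByExpr (minimum count 10, minimum total 15) and tested in R 4.3.3 with edgeR 4.0.16 (TMM, quasi-likelihood F test) in 1 fit of the 12 libraries, with Benjamini-Hochberg adjustment over 12849 genes and a threshold of 0.05. Standard errors came from the F values. RPKM was computed from TMM-scaled counts and exon length. Figures and promoter motif searches used Python 3.11.15.

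Counts of the libraries ranged from 21146291 to 31446849, which sets the counting error; of the factors only Maf, at 84 to 375 counts, was sparse. Alternatives were DESeq2 1.42.0, 3 other scalings, a minimum mean of 50 counts, no filter, a block for replicate number, 2 groups alone, a threshold of 0.01 and each library left out in turn. Simulated counts with known changes were used to test the scripts: edgeR recovered 91 of 100 genes changed by 1 on the log2 scale and 97 of 100 changed by 2 in the olaparib comparison over 12849 genes, with 9 false calls. The simulation gave every gene the same spread, changed no gene by less than 1 and held no deviant library. Its recovery does not carry over to the factors, whose changes with olaparib against DMSO were smaller than 1. Across genes, olaparib and DMSO libraries of equal number deviated together from their groups (r = 0.249, 0.209, 0.292 and 0.421, all over 0.1), so the numbers were taken to pair them; the pairing is inferred from the data, and the study's legend names 4 donor mice. The MNA numbers did not meet this rule.

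The factors and the gene lists around them were chosen with earlier results of these data known. Each factor is reported in every contrast; of each list, the 2 genes with the smallest p in olaparib against DMSO and the 2 in MNA against DMSO among tested genes with a mean CPM of at least 1 are named, and, of marker lists, the gene with the highest mean CPM. For each factor the gene with the nearest profile is also named. Genes named outside this rule (Fcgr1, S100a9, Cebpe, Cebpg, Trib3, Egr3, Klf12, C1qa, C1qc, Selenop, Retnla, Thbd, Fos, Jun, Dusp1, Btg2, Cd68, Gfi1b, Nfil3, Cbfb, Hhex) were chosen after their values were seen. Some genes that the rule would name are not reported here; counts over lists include them.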

Additional observations from a re-analysis of the deposited data

Results flagged for a closer look

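In each group of 4 libraries the highest or lowest value of each factor was compared with its neighbour by Dixon's test, 27 groups in all, of which chance flags about 1 in 20. Klf4 in MNA replicate 2 was at 110.8 CPM, and the nearest MNA library was at 40.4 CPM. Klf4 in DMSO replicate 1 was at 145.7 CPM against 134.2 CPM for its nearest neighbour. Spi1 in DMSO replicate 1 was at 452.5 CPM against 404.6 CPM. Cebpb in olaparib replicate 3 was at 190.4 CPM against 171.2 CPM.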

How the results depend on the processing

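The direction of each factor was kept under every alternative except for Spi1 with olaparib and Klf2 with MNA, which were not called. The log2 fold change of Spi1 with olaparib turned to 0.013 under upper quartile scaling and 0.012 at a mean of at least 50 counts, and with 1 library left out ranged from -0.030 to 0.032, above 0 without DMSO replicate 1 or olaparib replicate 4. That of Klf2 with MNA ranged from -0.095 to 0.11, below 0 without DMSO replicate 3 or MNA replicate 1.

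The number of factors called depended on the setting, and the cause was not tested. Called higher with olaparib against DMSO were 2, with 1 under no filter, 0 at an adjusted p under 0.01 and 1 to 3 with 1 library left out. Called lower were 1, with 0 under upper quartile scaling, no filter, a mean of at least 50 counts or 0.01, 3 with 2 groups alone and 0 to 2 with 1 library left out. Called lower with MNA were 4, with 0 at 0.01, 0 with 2 groups alone (4 at an unadjusted p under 0.05 by edgeR, and 5 called by DESeq2 in all 12 libraries) and 0 to 5 with 1 library left out. Called higher with olaparib against MNA were 3, with 5 under upper quartile scaling, DESeq2 or a mean of at least 50 counts, and 3 to 6 with 1 library left out. Called lower were 2, with 0 at 0.01 and 0 to 2 with 1 library left out.

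With the replicate number as a block in the fit of 12 libraries, Klf4 with olaparib had an adjusted p of 0.0923 by edgeR and the calls against DMSO stayed as they were, while Cebpb was called higher with olaparib than with MNA (adjusted p = 0.0250). Blocking and leaving out MNA replicate 2 gave 3 factors lower with olaparib, 1 higher with MNA (Myc, adjusted p = 0.0474) and 6 higher with olaparib than with MNA. Blocking with 2 groups alone gave 4 lower with olaparib, 0 lower with MNA and 1 lower with olaparib than with MNA. The share of all tested genes called was not determined for the blocked fits or for 2 groups alone. In the fits without the block, the counts over all tested genes also moved with MNA replicate 2: 3475 called with olaparib and 5694 without it, 3673 and 7042 with MNA, and 2800 and 5503 between the treatments. The common dispersion was 0.0333 with it and 0.0123 without it.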

Other observations

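For each factor, the tested gene with the most similar profile over the 12 libraries was found among 8095 genes with a mean of at least 10 CPM, by the root-mean-square difference of centred log2 CPM. These were Slc35a4 for Spi1 (0.0410), Ankrd40 for Cebpa (0.0826), Tle3 for Cebpb (0.115), Mtln for Cebpd (0.145), Fgd4 for Maf (0.132), Tbl2 for Klf2 (0.114), Rai14 for Klf4 (0.155), Atp5c1 for Egr2 (0.0446) and Wdr55 for Myc (0.0932). The median difference over the compared genes was 0.192 for Spi1 and 0.768 for Klf4.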
